A study of Drosophila melanogaster with 8 samples.

Results

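The effect of depleting the translation factor DENR on mRNA levels was measured in total RNA of S2 cells, a Drosophila melanogaster line with features of haemocytes, the fly blood cells. The comparison takes the 4 total RNA arrays of a series of 8, chosen by their titles: 2 arrays of cells treated with double-stranded RNA (dsRNA) against DENR, and 2 arrays of cells treated with dsRNA against GFP, a jellyfish protein for which flies have no gene. All of these cells carry the wild-type genotype according to their labels, so both groups share the cell line and the exposure to a dsRNA and differ in the sequence it targets. The dose and duration of the dsRNA treatment are not given in the sources used here. The other 4 arrays hold RNA bound to single ribosomes and polysomes, with 2 arrays for each dsRNA. A single cell line stands for the animal here, and a dsRNA lowers a transcript without removing the gene.

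DENR works in a complex with MCTS1, which helps a ribosome to start again on the same mRNA after it has translated a short upstream open reading frame. Total RNA shows the abundance of an mRNA, set by its synthesis and decay, and not its translation. The cells of origin matter for reading the gene names. Most fly haemocytes are plasmatocytes, phagocytes that carry Nimrod and scavenger receptors, secrete clotting proteins and basement membrane, and respond to microbes through the Toll, IMD and Sting pathways.

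The signal of each gene is a log2 value, and 1 unit is a 2-fold difference. Where a gene had several probe sets, the one with the highest mean over the 8 arrays was used. After the dimmest features had been left out, 10262 of 17104 features were tested, among them 8164 of 11982 genes with a symbol. Differences are given as knockdown minus control, with a standard error (SE, n = 2 arrays per group) that pools the spread within all 4 groups of the series. A gene is said to have risen or fallen when its Benjamini-Hochberg adjusted p from limma, over all 10262 features, was under 0.05. Precision is limited by the number of arrays. The series' design text calls both samples of a group biological replicates, and values below are listed as first and second array.

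The first knockdown array stood apart from the second. On the first principal component of all 8 arrays, which held 65.8% of the variance and separated total from ribosome-bound RNA, it scored -9.0 and the second knockdown array -27.3, against -29.6 and -35.1 for the control total RNA arrays. The ribosome-bound arrays scored 22.3 to 29.4. For the 846 features at least 2-fold higher in ribosome-bound than in total RNA of control cells, the first knockdown array read 0.49 above the second at the median, and for the 137 features at least 2-fold lower it read 0.18 below it (median -0.18). Results that depend on the first knockdown array are therefore also given without it.

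DENR itself, the gene targeted by the dsRNA, read 7.38 and 7.60 on the knockdown arrays and 8.28 and 8.18 on the control arrays of total RNA. Both knockdown values lay below both control values, but this gap of -0.74 ± 0.25 was not called (limma adjusted p = 0.17). The same transcript read 5.40 and 4.46 in ribosome-bound RNA of knockdown cells, against 8.41 and 8.26 in control cells, a difference of -3.40 ± 0.25 (limma adjusted p = 0.000203). In total RNA, its partner MCTS1 read 6.67 and 6.38 in knockdown cells against 6.68 and 6.41 in control cells, a difference of -0.02 ± 0.16. The related factor eIF2D read 7.28 and 7.52 in knockdown cells against 7.60 and 7.52 in control cells, a difference of -0.16 ± 0.14, and neither gene passed the test (limma adjusted p = 0.96 for MCTS1 and 0.567 for eIF2D).

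Most transcripts differed little after knockdown. By limma with Benjamini-Hochberg adjustment, 90 features (0.877% of those tested) rose and 72 (0.702%) fell, 1.58% together. With cyclic loess scaling the majority turned, to 88 risen and 105 fallen. In the scaling used throughout, 84 of the 90 risen and 58 of the 72 fallen features carry a single gene symbol. The median fold among the called features was 1.89 for the risen and 1.99 for the fallen, and 34 risen and 36 fallen features changed at least 2-fold. Whatever their p, 0.419% of all features were at least 2-fold higher and 0.351% at least 2-fold lower. Over all features the difference had a median of 0.02 and an SD of 0.31, with quartiles of -0.15 and 0.21. Both knockdown arrays lay above both control arrays for 24.5% of all features and below them for 21.5%, 46.0% together. A gap between the groups is thus common in these data and is not by itself a call. Each of the 90 risen and 72 fallen features had such a gap, so it adds nothing to a call.

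The called features also differed between the RNA fractions of control cells. At the median, ribosome-bound minus total RNA was 0.60 for the 90 risen and -0.59 for the 72 fallen features. The 846 features high on ribosomes had a median knockdown difference of 0.32 in total RNA, which became 0.08 without the first knockdown array, and the 137 features low on ribosomes had a median of -0.28, which became -0.20 without it. These values share the control arrays of total RNA and are given as a description.

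Calls were most frequent at intermediate signal. With the features ranked by mean signal and cut into 5 classes of equal size, the middle class (3.91 to 6.02) held 38 risen and 25 fallen features, and the dimmest (2.12 to 2.57) held 2 risen and 1 fallen. The second class (2.57 to 3.91) held 16 risen and 17 fallen, the fourth (6.02 to 7.57) 27 and 17, and the brightest (7.57 to 12.79) 7 and 12. From the dimmest to the brightest class the median difference was -0.06, -0.05, 0.19, 0.1 and -0.01. Medians of gene lists below are set beside all features, which span every class. Risen features were dim in control cells, with a median level of 5.45 in knockdown and 4.4 in control cells, and 15 of them had a control mean under 3. Fallen features had a median level of 4.95 in knockdown and 6.06 in control cells, and 11 had a knockdown mean under 3, close to the medians of whole arrays (2.32 to 2.48). Where the dimmer group is at background, a measured fold is a lower bound.

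**Figure D1:**
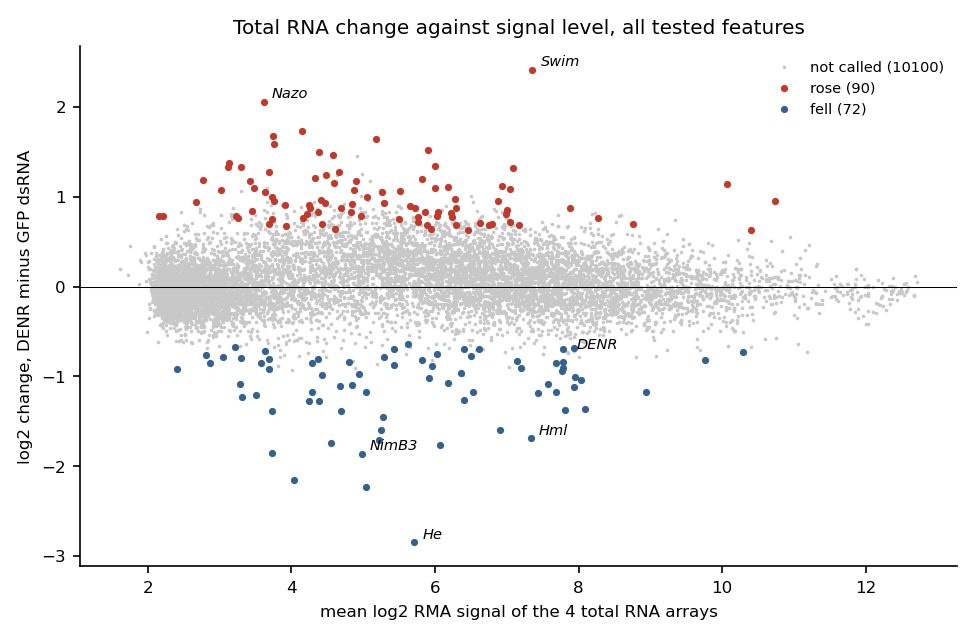
The log2 difference in total RNA (DENR dsRNA minus GFP dsRNA, vertical axis) is plotted against the mean log2 signal of the 4 total RNA arrays for the 10262 tested features. The 90 risen features are red, the 72 fallen blue and the others grey; He lies lowest at -2.85 and Swim highest at 2.41, and DENR is labelled at -0.74 among features that were not called.

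The number of calls rested on single arrays. Without the first knockdown array, 24 features rose and 37 fell, 0.594% of features in all, and without the second knockdown array 391 rose and 106 fell. Without the first control array 71 rose and 34 fell, and without the second control array 16 rose and 23 fell. Of the features called with all arrays, 23 of the 90 risen and 31 of the 72 fallen were also called without the first knockdown array, and 14 risen and 21 fallen were called whichever of the 8 arrays was left out.

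The largest fall in total RNA was that of He (Hemese), a glycosylated surface protein of haemocytes. Its signal was 4.32 and 4.26 on the knockdown arrays and 7.25 and 7.03 on the control arrays. The groups were far apart and each pair of arrays close together, and He fell by 2.85 ± 0.14, a 7.19-fold decrease (limma adjusted p = 2.79e-05). Hml (Hemolectin), a large clotting protein secreted by plasmatocytes, read 6.66 and 6.31 in knockdown cells and 8.20 and 8.16 in control cells. It fell by 1.69 ± 0.14 (3.23-fold, limma adjusted p = 0.000378), again with no overlap between the groups. Sr-CI, a scavenger receptor that binds bacteria, read 4.81 and 4.30 in knockdown cells and 6.02 and 5.99 in control cells and fell by 1.45 ± 0.18 (limma adjusted p = 0.00415). All 3 genes were called whichever array was left out.

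He lies within a row of neighbouring genes on chromosome arm 2L that fell together. In the RefSeq order of protein-coding genes, NimB1, NimB2, NimB3, NimB4, NimB5, He and NimC1 follow one another with no other protein-coding gene between them, and all 7 fell. The NimB genes encode secreted proteins of the Nimrod family, which share a type of EGF repeat, and NimC1 encodes a transmembrane receptor for the uptake of bacteria. NimB3 read 4.05 and 4.04 in knockdown cells against 5.81 and 6.0 in control cells, and NimB4 read 4.98 and 5.40 in knockdown cells against 6.80 and 7.11 in control cells. NimB3 fell by 1.86 ± 0.13 (limma adjusted p = 0.000264) and NimB4 fell by 1.76 ± 0.17 (limma adjusted p = 0.000917). NimB5 read 4.37 and 4.53 in knockdown cells against 6.02 and 6.08 in control cells and fell by 1.60 ± 0.13.

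The other members of the row were dimmer and fell less. NimB2 read 3.67 and 3.82 in knockdown cells against 4.98 and 5.05 in control cells, and NimB1 read 2.61 and 2.79 in knockdown cells against 3.98 and 3.88 in control cells. NimC1 read 2.97 and 2.86 in knockdown cells against 4.22 and 4.03 in control cells. For none of the 3 did the groups overlap, and the differences were -1.27 ± 0.18 for NimB2, -1.23 ± 0.14 for NimB1 and -1.21 ± 0.16 for NimC1, with limma adjusted p between 0.00222 and 0.00993. Without the first knockdown array, NimB2 differed by -1.20 with a limma adjusted p of 0.0516, and without the second control array by -1.23 with a limma adjusted p of 0.0863. The other 6 genes of the row were called without any single array.

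The genes on either side of the row were not called. On one side NimA, a Nimrod gene that read 2.37 and 2.67 in knockdown cells and 2.46 and 2.67 in control cells, differed by -0.05 ± 0.15, and the values of the groups overlapped. Beyond it, Vajk2 and Vajk1 differed by -0.29 ± 0.18 and -0.07 ± 0.13, and no limma adjusted p on that side was under 0.425. On the other side Cyp28a5, a cytochrome P450, read 2.37 and 2.59 in knockdown cells against 3.19 and 3.15 in control cells. Its difference of -0.69 ± 0.15 missed the threshold (limma adjusted p = 0.0588), and bgm, a fatty acid ligase further along, differed by -0.52 ± 0.15 (limma adjusted p = 0.109). Both lay lower on both knockdown arrays. NimC2 and NimC3 were too dim to be tested.

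**Figure D2:**
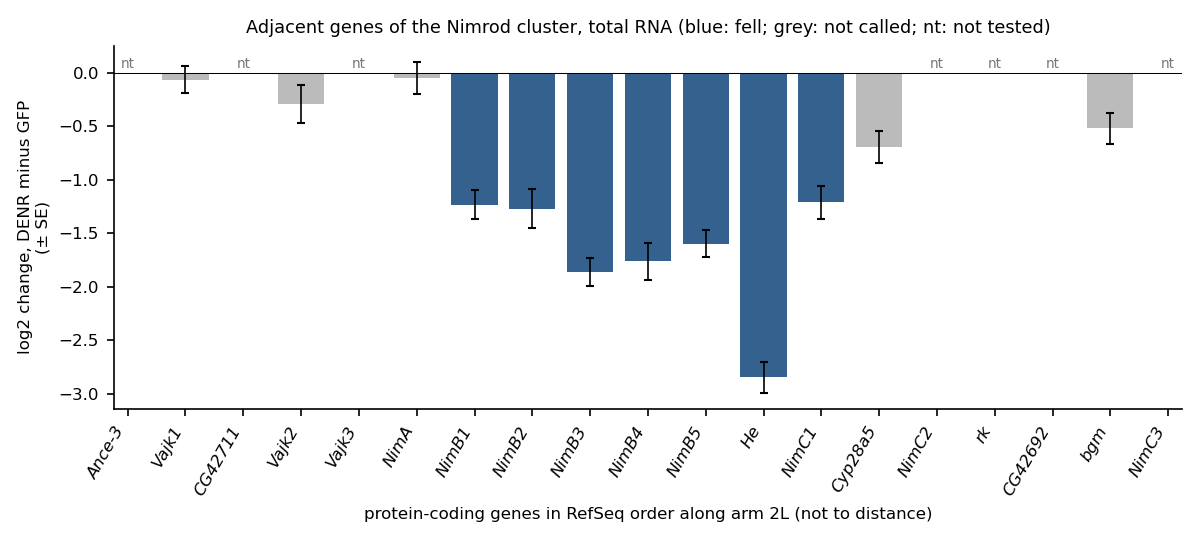
Bars give the log2 difference in total RNA (DENR dsRNA minus GFP dsRNA, vertical axis, with SE as error bars) for protein-coding genes in their RefSeq order along arm 2L, not drawn to distance. The 7 adjacent blue bars, from NimB1 to NimC1, are genes that fell by 1.21 to 2.85, the grey bars are genes not called, and nt marks genes that were not tested.

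Such a row was not seen elsewhere among the called genes. Of the 58 fallen genes with a place in the order, 7 (12.1%) had an adjacent fallen gene, and these are the genes of the row, whereas 66 of all 8090 tested protein-coding genes (0.816%) lie next to a fallen gene. None of 83 risen genes had an adjacent risen gene, against 111 of 8090 genes (1.37%) that lie next to one. Arm 2L held 24 fallen and 10 risen genes among 1479 tested, 1.62% and 0.676%, and the 7 genes of the row are among the 24. Arm 3L held 4 fallen and 16 risen among 1592 tested, 0.251% and 1.01%.

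Across haemocyte receptors and surface proteins as a group, 10 of 20 tested members fell and 0 rose, beside 0.702% of all features that fell. This list was chosen with earlier results of these data known, so the contrast with all features is a description. The 20 had a median of -0.96, against 0.02 for all features, and medians of -0.86 and -1.0 on the first and the second knockdown array against the control mean. Among members with a mean signal of at least 5 the median was -0.39. The 10 are He, Hml, Sr-CI, the 5 NimB genes, NimC1 and NimC4. NimC4 (SIMU), a receptor for the uptake of apoptotic cells that lies a few genes beyond the row on arm 2L, read 3.05 and 3.01 in knockdown cells against 4.42 and 4.43 in control cells and fell by 1.39 ± 0.21 (limma adjusted p = 0.011). Its limma adjusted p became 0.0502 when the first control array was left out and 0.0863 when the second was.

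The other receptors showed smaller differences in both directions, none of them called. The scavenger receptor Sr-CIV read 3.65 and 3.34 in knockdown cells against 4.35 and 4.06 in control cells (-0.71 ± 0.17). The phagocytic receptor eater read 5.16 and 4.94 in knockdown cells against 5.35 and 5.74 in control cells (-0.49 ± 0.18). For these 2 genes the knockdown arrays lay below the control arrays. The engulfment receptor drpr (-0.28 ± 0.23) and the CD36-like receptor crq (0.16 ± 0.23) had overlapping groups, with crq at 7.74 and 7.08 in knockdown cells and 7.07 and 7.42 in control cells. Dscam1, an immunoglobulin receptor of neurons and haemocytes, had the highest difference of the group at 0.31.

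Other plasmatocyte products, which were far brighter, were not called. The collagen IV gene Col4a1 read 9.94 and 9.79 in knockdown cells and 10.17 and 9.81 in control cells. Pxn (peroxidasin), a matrix enzyme, read 9.93 and 9.86 in knockdown cells and 9.85 and 9.57 in control cells. SPARC, a collagen-binding matrix protein, read 11.50 on both knockdown arrays and 11.62 and 11.58 on the control arrays. Of 16 basement membrane and matrix genes 1 fell, beside 0.702% of all features, 0 rose and the median was -0.06. The member that fell was wb, a laminin alpha chain, at 5.08 and 4.92 in knockdown cells against 6.02 and 5.70 in control cells (-0.87 ± 0.16, limma adjusted p = 0.0311). Its other probe sets differed by 0.10 and -0.11. It differed by -0.95 without the first knockdown array, and it lost the call without each of the total RNA arrays in turn.

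The transcription factors of the haemocyte lineage also showed no call. For 6 tested factors the median was 0.04, with 0 risen and 0 fallen. Their GATA factor srp (serpent) read 7.53 and 6.90 in knockdown cells and 7.49 and 7.30 in control cells (-0.18 ± 0.19), and the groups overlapped. Of 7 lamellocyte and crystal cell markers 1 fell, beside 0.702% of all features. It was PPO3, a phenoloxidase precursor of lamellocytes, which fell by 0.70 ± 0.14, with 7.36 and 7.50 in knockdown cells against 8.14 and 8.11 in control cells (limma adjusted p = 0.0421). That call was lost without the first knockdown array (difference -0.63) and without most of the other arrays in turn. In bulk RNA, fewer cells of a type and less RNA of a gene in each cell cannot be told apart.

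Outside the haemocyte genes, the largest falls of named genes were those of 2 lipid enzymes and of genes of little known function. Fa2h, a fatty acid hydroxylase, read 3.58 and 3.78 in knockdown cells against 5.40 and 5.43 in control cells and fell by 1.74 ± 0.17 (3.34-fold). wun2, a lipid phosphate phosphatase that guides migrating germ cells in the embryo, read 6.03 and 6.19 in knockdown cells against 7.66 and 7.76 in control cells and fell by 1.60 ± 0.13 (3.03-fold). They were the 2 members called of 25 genes of lipid synthesis and storage, beside 0.702% of all features that fell, and the median of the list was 0.15. firl read 2.92 and 2.71 in knockdown cells against 4.75 and 4.57 in control cells and fell by 1.85 ± 0.16. CG14273 read 4.11 and 4.60 in knockdown cells against 6.03 and 6.10 in control cells and fell by 1.71 ± 0.17. CG12116 read 3.87 and 4.11 in knockdown cells against 5.45 and 5.32 in control cells and fell by 1.39 ± 0.15. The limma adjusted p of these 5 genes ran from 0.000315 for wun2 to 0.00192 for CG12116, and each was called whichever array was left out.

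**Figure D3:**
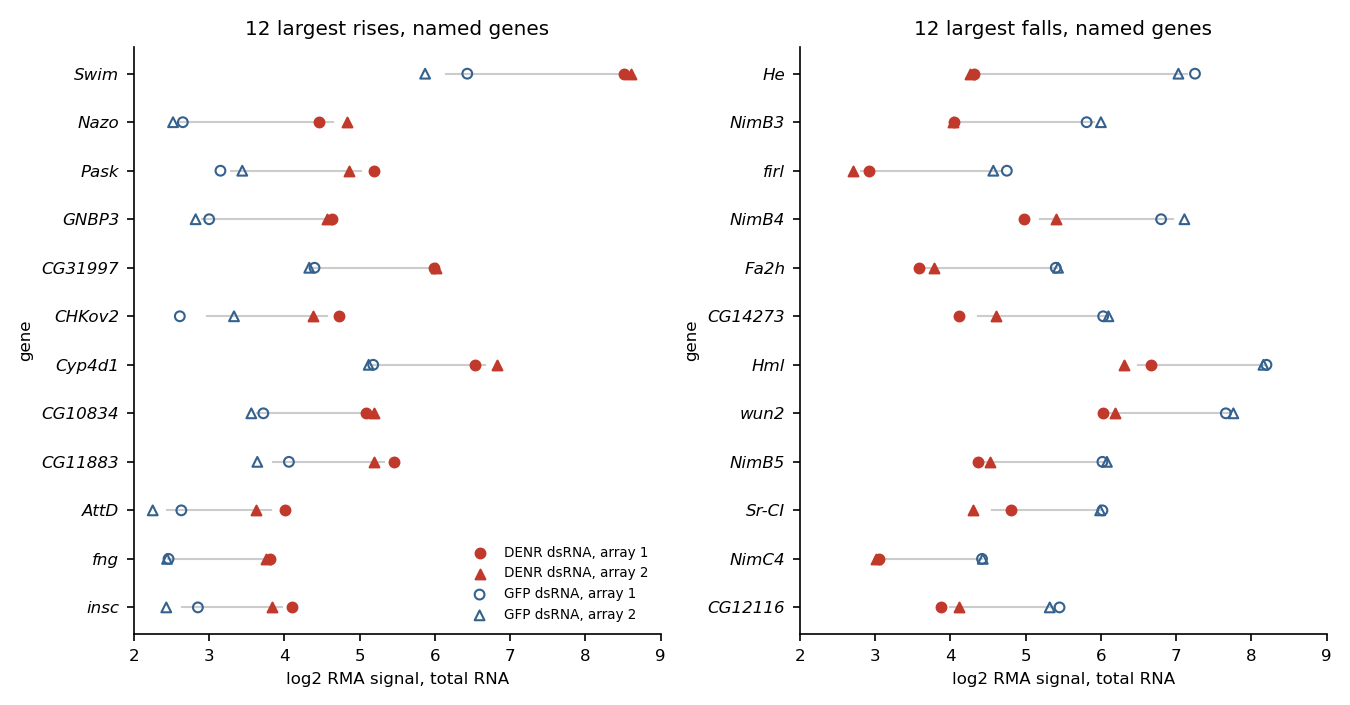
Each row is a gene, with its log2 signal in total RNA on the 2 arrays of DENR dsRNA (red, filled) and the 2 arrays of GFP dsRNA (blue, open), and a grey line between the group means. The 12 named genes of largest rise are on the left and the 12 of largest fall on the right. They were chosen among called genes whose groups do not overlap, so both red symbols lie on the same side of both blue ones.

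Single genes of the lysosome, detoxification and signalling fell. Of 17 lysosomal genes 2 fell, beside 0.702% of all features. LManI, an alpha-mannosidase, read 4.02 and 3.41 in knockdown cells against 5.08 and 4.69 in control cells and fell by 1.17 ± 0.21, and Npc2b, of a family of sterol carriers, fell by 0.79 ± 0.14. Npc2b lost its call without the first knockdown array (difference -0.69) and without each of the control arrays in turn. LManI was called without either knockdown array but lost its call without any 1 of the other 6 arrays (limma adjusted p up to 0.0813). Of 46 cytochrome P450 genes tested, Cyp9h1 fell by 0.98 ± 0.14, with 4.09 and 3.80 in knockdown cells against 4.88 and 4.96 in control cells. It was called without the first knockdown array and lost its call without the second control array (limma adjusted p = 0.0859). Of 31 glutathione transferases, GstD7 fell by 0.84 ± 0.16, with 7.40 and 7.34 in knockdown cells against 8.29 and 8.13 in control cells.

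Nf1, which switches off Ras, was the 1 of 15 EGFR, Ras and MAPK genes that fell, beside 0.702% of all features. Its brightest probe set read 2.72 and 2.75 in knockdown cells against 3.94 and 3.72 in control cells, a fall of 1.09 ± 0.14 (limma adjusted p = 0.00491), and it was called whichever array was left out. Its other probe sets disagreed, with differences of -0.07 and 0.16. The lysozyme LysX (-0.67 ± 0.14) and the tetraspanin Tsp42El (-0.64 ± 0.13) were also called lower. GstD7, LysX and Tsp42El lost the call without the first knockdown array, where they differed by -0.87, -0.69 and -0.60. They also lost it without most of the other arrays in turn, so these calls do not rest on that array alone.

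Swim, whose secreted product carries Wingless between cells, had the largest rise. It read 8.51 and 8.61 on the knockdown arrays and 6.43 and 5.87 on the control arrays, well apart, and rose by 2.41 ± 0.18, a 5.32-fold increase (limma adjusted p = 0.000264). Its probe set is of the kind that can match more than 1 transcript. Nazo, an antiviral gene induced through Sting, read 4.46 and 4.83 in knockdown cells against 2.65 and 2.52 in control cells and rose by 2.06 ± 0.16 (4.16-fold). Pask, a kinase with a PAS domain, read 5.19 and 4.86 in knockdown cells against 3.15 and 3.44 in control cells and rose by 1.73 ± 0.16 (3.33-fold). All 3 were called whichever array was left out.

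Genes of innate immunity were among the risen. Of 20 IMD and Sting genes tested 3 rose and 0 fell, beside 0.877% of all features that rose. This list too was chosen with earlier results of these data known. The list had a median of 0.21, with 0.32 on the first and 0.18 on the second knockdown array, against 0.02 over all features. Its median level lay in the middle signal class (3.91 to 6.02) on each total RNA array, and that class had a median of 0.19. The 3 that rose are Nazo, Sting and Rel. Sting, the receptor for cyclic dinucleotides, read 7.81 and 7.38 in knockdown cells against 6.56 and 6.45 in control cells and rose by 1.09 ± 0.20 (limma adjusted p = 0.0267). Rel (Relish), the NF-kappaB factor of the IMD pathway, read 8.76 and 8.55 in knockdown cells against 7.83 and 7.96 in control cells and rose by 0.76 ± 0.16 (limma adjusted p = 0.0476). Without the first knockdown array, Sting differed by 0.88 and Rel by 0.65, and neither was called. Sting also lost its call without each control array of total RNA, and Rel without most of the other arrays in turn. Nazo is also, with Sting, 1 of the 2 genes that rose among 12 small RNA and antiviral genes.

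Recognition and effector genes of immunity rose singly. GNBP3, which recognises fungal glucans upstream of Toll, read 4.63 and 4.56 in knockdown cells against 3.0 and 2.82 in control cells and rose by 1.68 ± 0.13 (limma adjusted p = 0.000264). It was the 1 member called of 17 Toll pathway genes, whose median was 0.13, beside 1.58% of all features called. The Toll ligand spz read 6.47 and 5.97 in knockdown cells against 6.94 and 6.91 in control cells, and its difference of -0.71 ± 0.17 missed the threshold (limma adjusted p = 0.081). AttD, an attacin, read 4.01 and 3.62 in knockdown cells against 2.63 and 2.25 in control cells and rose by 1.38 ± 0.17 (limma adjusted p = 0.00418). Of the 7 tested genes on the list of antimicrobial peptides and lysozymes AttD rose and LysX fell, and the median was -0.10. Other peptide genes, such as AttA, AttB, AttC and DptA, were not tested. Of 9 JAK-STAT genes 0 were called (median 0.14), and hop and upd3 were not among those tested. GNBP3 and AttD were called whichever array was left out, and AttD reached a limma adjusted p of 0.0485 without the second control array.

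Single genes of carbohydrate metabolism rose. Of 16 genes of glycolysis and sugar metabolism 2 rose and 0 fell, beside 0.877% of all features that rose, the median was 0.16, and the median by array was 0.17 on the first and 0.14 on the second knockdown array. Glyp, glycogen phosphorylase, read 4.19 and 3.85 in knockdown cells against 3.04 and 2.64 in control cells and rose by 1.17 ± 0.19 (limma adjusted p = 0.0158). Pfk, phosphofructokinase, read 6.37 and 6.49 in knockdown cells against 5.73 and 5.55 in control cells and rose by 0.79 ± 0.14 (limma adjusted p = 0.0216). Neither had overlapping groups. Both missed the threshold without the first knockdown array, where Glyp differed by 1.0 and Pfk by 0.85, and also without the second control array.

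Among detoxification enzymes, the cytochrome P450 gene Cyp4d1 read 6.53 and 6.82 in knockdown cells against 5.18 and 5.12 in control cells and rose by 1.52 ± 0.18 (2.88-fold). It was called whichever array was left out. Cyp6a20, a P450 linked to aggression in adult flies, read 5.52 and 4.82 in knockdown cells against 3.95 and 4.08 in control cells, a rise of 1.15 ± 0.23. That rise became 0.80 without a call when the first knockdown array was left out. The call was also lost without most of the other arrays in turn. The glutathione transferase GstT3 read 8.26 and 8.36 in knockdown cells against 7.48 and 7.39 in control cells and rose by 0.87 ± 0.13 (limma adjusted p = 0.011, and 0.0863 without the second control array). Sod3, an extracellular superoxide dismutase, rose by 0.70 ± 0.15 on its brightest probe set, and its other probe set differed by 0.01. It was the 1 member called of 11 antioxidant genes, beside 1.58% of all features.

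Of 62 genes of oxidative phosphorylation 1 rose and 0 fell (median -0.01), beside 0.877% of all features that rose. It was ATPsynepsilonL, named as like the epsilon subunit of ATP synthase, at 6.62 and 6.63 in knockdown cells against 5.95 and 5.76 in control cells (0.77 ± 0.13). CysRS-m, the mitochondrial cysteinyl-tRNA synthetase and the 1 of 29 aminoacyl-tRNA synthetases called, read 5.81 and 5.70 in knockdown cells against 4.81 and 4.84 in control cells (0.93 ± 0.16). Sod3, ATPsynepsilonL and CysRS-m were not called without the first knockdown array, while their differences stayed at 0.83, 0.78 and 0.87. Sod3 lost its call whichever array was left out, and ATPsynepsilonL and CysRS-m also lost theirs without the second control array.

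Risen genes of signalling and cell polarity were spread over several pathways. grk (gurken), a TGF-alpha-like ligand of the EGF receptor best known from the oocyte, read 6.60 and 6.23 in knockdown cells against 5.22 on both control arrays and rose by 1.20 ± 0.16 (limma adjusted p = 0.00489). fng (fringe), a glycosyltransferase that modifies Notch, read 3.81 and 3.76 in knockdown cells against 2.46 and 2.44 in control cells and rose by 1.33 ± 0.14 (limma adjusted p = 0.00177). insc (inscuteable), which orients the spindle of dividing neuroblasts, read 4.10 and 3.83 in knockdown cells against 2.85 and 2.43 in control cells and rose by 1.33 ± 0.18. For none of these 3 genes did the groups overlap. ImpE3, an ecdysone-inducible gene, read 5.17 and 5.05 in knockdown cells against 4.03 and 3.71 in control cells (1.24 ± 0.15). It was the 1 member called of 13 ecdysone signalling genes, beside 1.58% of all features. These 4 genes were called without the first knockdown array, and grk and insc lost the call without the second control array (limma adjusted p = 0.0504 for grk and 0.0677 for insc).

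The remaining largest rises belonged to genes with no well-established role. CG31997 read 5.99 and 6.01 in knockdown cells against 4.40 and 4.33 in control cells (1.64 ± 0.13). CG10834 read 5.09 and 5.19 in knockdown cells against 3.72 and 3.56 in control cells (1.5 ± 0.15). CG11883 read 5.46 and 5.19 in knockdown cells against 4.06 and 3.64 in control cells (1.47 ± 0.17). These 3 were called whichever array was left out. CHKov2, of a family of predicted small-molecule kinases, had the widest spread of the 12 largest rises, at 4.73 and 4.38 in knockdown cells against 2.61 and 3.33 in control cells (1.59 ± 0.28). It was not called without the first knockdown array (difference 1.41) or without the first control array (difference 1.22).

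Genes that act on mRNA and in division rose one at a time. Patr-1, an activator of mRNA decapping, read 5.65 and 4.98 in knockdown cells against 4.26 and 3.81 in control cells and rose by 1.28 ± 0.23 (limma adjusted p = 0.0279). The deadenylase Pop2 read 6.67 and 6.37 in knockdown cells against 5.80 and 5.54 in control cells, a difference of 0.85 ± 0.19 that was not called (limma adjusted p = 0.0584). mad2, of the spindle checkpoint, rose by 0.68 ± 0.14 and was the 1 member called of 35 cell cycle and replication genes, and Nup154 rose by 0.72 ± 0.15 as the 1 of 22 nuclear pore genes. Of all features 0.877% rose. Patr-1, mad2 and Nup154 were not called without the first knockdown array, where they differed by 0.94, 0.56 and 0.62. Patr-1 also lost its call without the second control array, and mad2 and Nup154 without most of the other arrays in turn.

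The machinery of protein synthesis, on which DENR acts, held 1 call in all, that of CysRS-m. Of 41 translation initiation factors 0 rose and 0 fell, with a median of -0.02 (-0.06 to 0.03 over the other scalings) and a range from -0.74 for DENR itself to 0.37 for eIF2beta. Of 9 elongation and termination factors 0 were called (median 0.05). Of 36 cytoplasmic ribosomal proteins 0 were called, but 24 lay lower on both knockdown arrays and 1 lay higher, beside 21.5% and 24.5% of all features. Their median difference was -0.09, with -0.09 on the first and -0.06 on the second knockdown array, but it was 0.04 with cyclic loess scaling, so its direction depends on the scaling. Of 69 mitochondrial ribosomal proteins 0 were called and 32 lay lower on both knockdown arrays, with a median of -0.15. That median was -0.26 on the first knockdown array and -0.04 on the second, so it rests on the first. The member of largest difference, mRpS28, read 6.91 and 7.10 in knockdown cells against 7.55 and 7.60 in control cells (-0.57 ± 0.14, limma adjusted p = 0.0858).

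Subunits of the CCT chaperonin, which folds actin and tubulin, had medians of -0.19 and -0.16 on the first and the second knockdown array. None of the 8 was called, 5 lay lower on both knockdown arrays, beside 21.5% of all features, and the widest gap was that of CCT1, at 10.16 and 10.35 in knockdown cells against 10.60 and 10.53 in control cells (-0.31 ± 0.13). The proteasome (31 tested, median -0.06) and the vacuolar ATPase (23 tested, median 0.06) had 0 calls.

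The lists that lay highest were also highest on the first knockdown array. Of 9 germline genes tested 0 were called, and 8 lay higher on both knockdown arrays, beside 24.5% of all features. Their median was 0.57, with 0.84 on the first and 0.39 on the second knockdown array, and in control cells they read 1.07 higher at the median in ribosome-bound than in total RNA. piwi, a small-RNA-binding protein that silences transposons, read 6.62 and 5.99 in knockdown cells against 5.87 and 5.61 in control cells (0.57 ± 0.21). gcl (germ cell-less) read 5.52 and 5.26 in knockdown cells against 4.74 and 4.37 in control cells (0.83 ± 0.20), and the gap junction gene zpg read 5.70 and 5.18 in knockdown cells against 4.99 and 4.32 in control cells (0.78 ± 0.23). The median level of the list was 5.70 and 5.26 on the knockdown arrays and 4.95 and 4.62 on the control arrays.

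Genes of mRNA turnover followed the same order of arrays. Of 14 tested, Patr-1 rose and 0 fell, beside 0.877% of all features that rose. The median was 0.30 (0.14 with quantile normalization within each fraction), with 0.43 on the first and 0.13 on the second knockdown array, and these genes read 0.52 higher at the median on ribosomes in control cells. Of the Wingless pathway only 5 genes could be tested, and wg, arm, fz, dsh and sgg were not among them. The 5 had a median of 0.83 (1.11 and 0.54 by array), and Swim was the 1 that rose. The pathway scaffold Axn read 6.05 and 5.31 in knockdown cells against 5.21 and 3.82 in control cells, a difference of 1.17 ± 0.38 that was not called (limma adjusted p = 0.156). The control arrays of Axn lay further apart than the group means.

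**Figure D4:**
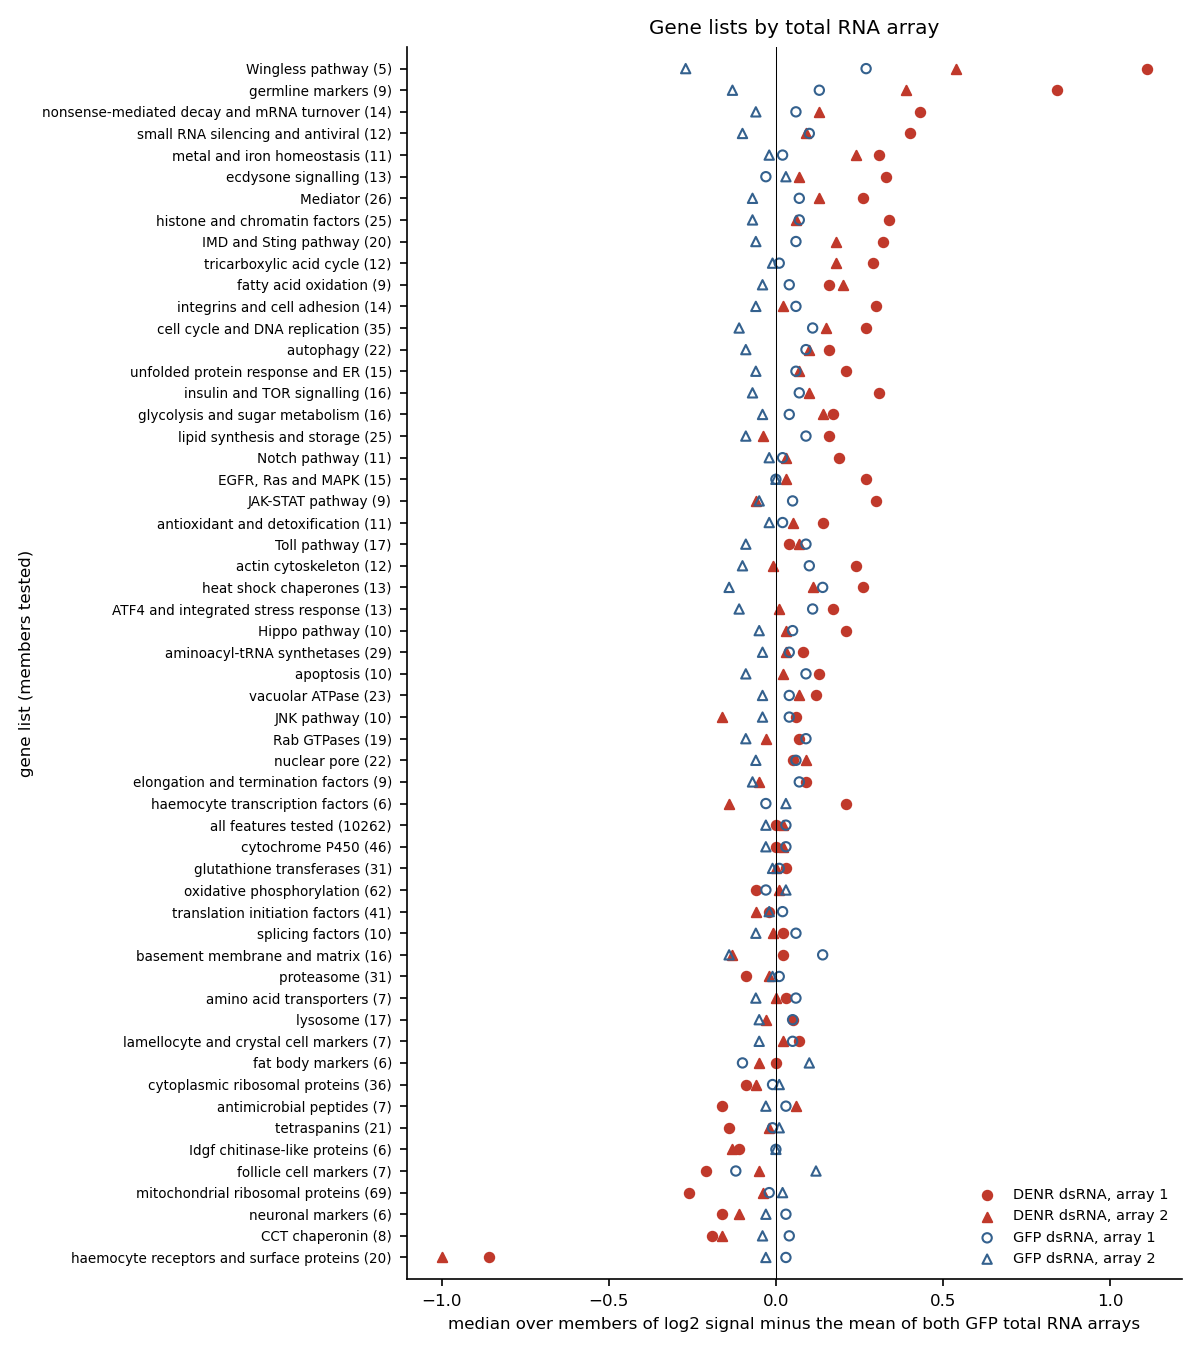
For each gene list (number of tested members in brackets), symbols give the median over its members of the log2 signal minus the mean of both GFP total RNA arrays, for each array of DENR dsRNA (red, filled) and GFP dsRNA (blue, open). Haemocyte receptors lie at -0.86 and -1.0 on the knockdown arrays, away from every other list, while germline and Wingless genes lie highest and further out on the first knockdown array than on the second.

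Markers of other tissues gave no call. For 6 neuronal genes tested, the median level was 2.80 and 3.09 on the knockdown arrays and 3.35 and 3.01 on the control arrays, and elav read 3.64 and 3.37 in knockdown cells and 3.62 and 3.71 in control cells. The median levels of 6 fat body genes (2.73 and 2.55 in knockdown cells, 2.56 and 2.84 in control cells) and 7 follicle cell genes (2.67 and 2.74 in knockdown cells, 3.0 and 3.1 in control cells) were close to those of whole arrays. Of the muscle and gut markers, 1 and 2 were bright enough to be tested. The haemocyte transcription factors were brighter, with medians of 7.71 and 7.31 in knockdown cells and 7.58 and 7.48 in control cells. The haemocyte receptors had medians of 4.59 and 4.42 in knockdown cells and 5.91 and 5.87 in control cells, and NimA, NimB1 and NimC1 read near the whole-array medians on the knockdown arrays.

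In all, 23 of the 57 gene lists held a call and 34 held none, and the medians of those 34 ran from -0.18 to 0.57. Signalling and stress lists without a call include insulin and TOR signalling (16 tested, median 0.17), the JNK (10 tested, 0.06) and Hippo pathways (10 tested, 0.11), ATF4 and the integrated stress response (13 tested, 0.11), the unfolded protein response (15 tested, 0.17) and heat shock chaperones (13 tested, 0.12). Others are autophagy (22 tested, 0.17), apoptosis (10 tested, 0.08), the Mediator complex (26 tested, 0.23), the tricarboxylic acid cycle (12 tested, 0.20), fatty acid oxidation (9 tested, 0.19) and Rab GTPases (19 tested, 0.05). Genes were tested singly, and the absence of calls at 2 arrays per group does not show that levels were equal. The lists also lack members for which no probe set carried that symbol alone. Examples are Thor of the ATF4 list and rpr, hid and Drice of the apoptosis list. A list without a call thus does not cover its whole pathway. On both knockdown arrays 7 genes of fatty acid oxidation lay higher and 2 lower. For the Mediator complex these counts were 12 and 3, and for the unfolded protein response 7 and 2, beside 24.5% and 21.5% of all features. The median levels of these last 2 lists lay in the fourth signal class (6.02 to 7.57), whose median difference was 0.1. Shares over all features include the dim classes, with medians of -0.06 and -0.05.

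The called genes were next set beside ribosome-bound RNA, measured on other arrays of the same treatments. Of the 90 risen features 83 were also higher in ribosome-bound RNA after knockdown, where 49.4% of all features were higher, and of the 72 fallen 69 were also lower, where 50.6% were. By limma with Benjamini-Hochberg adjustment 34 of the 90 rose there too (0.653% of all features) and 29 of the 72 fell there too (0.692% of all features). Both fractions were tested with the same estimate of each gene's spread, so a small estimate favours a call in both. The overlap of calls is thus not independent agreement. The median difference of the risen was 0.61 in ribosome-bound and 0.92 in total RNA, and that of the fallen was -0.57 in ribosome-bound and -0.99 in total RNA.

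Single genes lay near or far from the line of equal change. He fell by 2.59 ± 0.14 in ribosome-bound and by 2.85 ± 0.14 in total RNA, and Nazo rose by 2.07 ± 0.16 in ribosome-bound and by 2.06 ± 0.16 in total RNA. Fa2h, in contrast, read 2.81 and 3.31 in ribosome-bound RNA of knockdown cells against 3.17 and 3.29 in control cells, a difference of -0.17 ± 0.17 with overlapping groups. NimC4 (-0.06 ± 0.21) and CG12116 (-0.06 ± 0.15) also showed no call on ribosomes. The test of the difference between the fractions called 0 features, 0.0% of those tested, while 1022 had an unadjusted p under 0.05. For DENR the change on ribosomes minus that in total RNA was -2.66 ± 0.35 (limma adjusted p = 0.101). The test gave limma adjusted p = 0.161 for Fa2h, 0.185 for CG12116 and 0.48 for NimC4. A different change in the fractions was thus not shown for any gene.

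**Figure D5:**
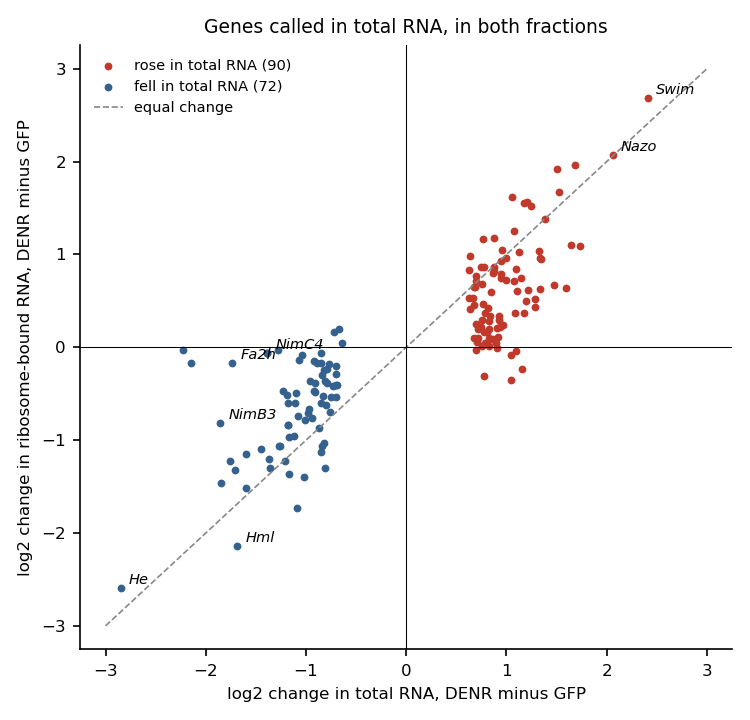
Each point is a feature called in total RNA, with its log2 difference (DENR dsRNA minus GFP dsRNA) in total RNA on the horizontal and in ribosome-bound RNA on the vertical axis; red points rose in total RNA, blue points fell, and the dashed line marks equal change. Of the 162 features, 83 red and 69 blue points have the same sign in both fractions, and Fa2h and NimC4 lie near 0 on the vertical axis.

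At the threshold, the last gene inside was CG18596, which read 4.66 and 4.07 in knockdown cells against 3.48 and 3.45 in control cells (0.91 ± 0.19, limma adjusted p = 0.0487). The first gene outside was GILT3, of a family of lysosomal thiol reductases, which read 5.42 and 5.72 in knockdown cells against 6.20 and 6.31 in control cells (-0.68 ± 0.14, limma adjusted p = 0.05). Both had groups that did not overlap. Without the first knockdown array neither was called, with differences of 0.61 for CG18596 and -0.53 for GILT3. CG18596 also lost its call without most of the other arrays in turn. Of the 51 called genes named by rule, 20 lost the call without the first knockdown array and 4 without the second, 17 without the first control array and 25 without the second, and 13 without each of the ribosome-bound arrays in turn. In all, 25 were called whichever array was left out.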

How the data were processed

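Total RNA was extracted with Trizol and biotin-labelled cRNA was hybridised to Affymetrix arrays, per the labels' protocols. The authors deposited 1 log2 signal for each probe set and array, computed with RMA per the submitters' processing notes; its version and settings are not given in the sources used here. The log2 base was taken from the range of the values, 0.83 to 12.88. RMA in general brings arrays to a common distribution, so a shift of most transcripts in 1 direction is not visible. No scanner signals or detection calls were used, so background was judged by level alone. Of 18952 probe sets, 183 controls were left out; 13647 had 1 gene symbol, 402 several and 4720 none, and 13544 matched a RefSeq gene table (Release 6). Those without a single symbol entered the tests and stayed unnamed. For 1094 genes with several probe sets the brightest was used, and the brightest 60% of features (mean of at least 2.12) were tested.

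Group means of all 8 arrays (4 groups) were fitted once with limma 3.58.1 in R 4.3.3, using empirical Bayes moderation, two-sided p-values and Benjamini-Hochberg adjustment. Neighbours were taken from the RefSeq order of protein-coding genes. On simulated data with 200 of 10262 genes changed, 73% of changes of log2 1 and 100% of log2 2 were recovered, with 8 false calls. The simulated noise was independent between genes and arrays. It held no shift shared by many genes, such as that of the first knockdown array, so these rates need not hold for the measured data. Alternatives were other normalizations and filters, a replicate block, a random block for the culture, a minimum fold, all probe sets, a trended prior, the total RNA arrays alone and each array left out.

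The genes described and the 57 lists were chosen with earlier results of these data known. The rule for naming took DENR, MCTS1 and eIF2D, the 12 largest rises and 12 largest falls among called genes with no overlap of the groups, up to 5 called members of each list, the 2 extreme members of the 3 highest and 3 lowest lists, neighbouring genes called alike, and 1 gene on each side of the threshold. Other genes are named as uncalled members of a list, as flanks of the row of neighbours or, in the closing section, after their values were seen. Symbol patterns of 3 lists were corrected after their membership was seen. Figures were drawn with matplotlib 3.10.9.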

Additional observations from a re-analysis of the deposited data

How the results depend on the processing

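None of the 162 called features changed direction with array medians centred, quantile normalization within each fraction or cyclic loess. Only these scalings could have turned a direction. The other alternatives keep the difference or leave out 1 array, and no called feature had overlapping groups, so a direction could not turn there. At a mean log2 signal of at least 5, 89 of the 162 had a value, and 146 did among the brightest 40% of features. MCTS1, which was not called (-0.02), lay at 0.02 with array medians centred, 0.12 without the second knockdown and 0.11 without the first control array. The counts of risen and fallen features (90 and 72) ran from 16 to 391 and from 23 to 106 when each array was left out in turn. Risen features numbered 54 with array medians centred, 20 with only the 4 total RNA arrays, 59 with a replicate block, 6 when at least 1.5-fold was required, and 44 at a mean log2 signal of at least 5, a level chosen after seeing the data. Fallen features numbered 116 with quantile normalization within each RNA fraction, 26 with only the 4 total RNA arrays, 11 when at least 1.5-fold was required, and 41 at a mean log2 signal of at least 5. The majority turned to the fallen under quantile normalization (106 risen, 116 fallen) and cyclic loess (88 risen, 105 fallen). Cultures share only a number in the labels: deviations of same-numbered knockdown and control total RNA arrays correlated at 0.379, and the replicate block gave 59 risen and 57 fallen features, with 10 of the 51 named calls lost. Total and ribosome-bound arrays of the same number correlated at -0.306 in knockdown and -0.203 in control cells, and the culture as a random block gave 99 risen and 71 fallen. With 1 array left out of a group, the other array was taken to vary like the other groups. At an unadjusted p under 0.05, 1188 features were higher and 615 lower.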

Other observations

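Further genes that rose or fell in total RNA lie outside the lists and were chosen after their values were seen. Had2 read 6.88 and 7.35 in knockdown cells against 8.36 and 8.61 in control cells and fell by 1.37 ± 0.18 by limma. Gpdh1, glycerol-3-phosphate dehydrogenase, read 5.44 and 5.38 in knockdown cells against 6.27 and 6.19 in control cells and fell by 0.82 ± 0.13. Apoltp, a lipid transfer particle apolipoprotein, read 4.53 and 4.38 in knockdown cells against 5.72 and 5.53 in control cells and fell by 1.17 ± 0.14. The groups of these 3 genes did not overlap. betaTub97EF, a beta-tubulin isotype, read 6.98 and 7.09 in knockdown cells against 8.13 and 8.10 in control cells and fell by 1.08 ± 0.13. Obp99c, an odorant-binding protein, read 6.87 and 7.31 in knockdown cells against 8.13 and 8.41 in control cells and fell by 1.18 ± 0.19.

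Among the risen, glob1, a haemoglobin-like globin, read 7.82 and 7.68 in knockdown cells against 6.48 and 6.38 in control cells and rose by 1.32 ± 0.13, with a difference of 1.04 in ribosome-bound RNA. Arc1, a retrotransposon-derived capsid protein, was among the brightest called genes, at 11.23 and 11.18 in knockdown cells against 10.10 and 10.41 in control cells, and rose by 0.95 ± 0.14. Fmo-2, a flavin monooxygenase, read 6.77 and 6.34 in knockdown cells against 5.65 and 5.26 in control cells and rose by 1.10 ± 0.21. In ribosome-bound RNA it differed by -0.04, but the test of the difference between the fractions called no feature. trk (trunk), a ligand of the Torso receptor, read 6.68 and 6.77 in knockdown cells against 5.76 and 5.94 in control cells and rose by 0.88 ± 0.14. The kinase gwl (greatwall), which acts at entry into mitosis, read 4.34 and 3.97 in knockdown cells against 3.09 and 3.12 in control cells and rose by 1.05 ± 0.16. Pex3, needed to form peroxisomes, read 6.52 and 6.73 in knockdown cells against 5.82 and 5.80 in control cells and rose by 0.82 ± 0.14. Obp99c, Gpdh1, Arc1, Fmo-2 and gwl were not called without the first knockdown array, and each also lost its call without another array.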
